A study of Homo sapiens with 4 samples.

Results

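POLR2A HiChIP-seq listed 1831 DNA loops with at least 8 paired-end tags (PETs) in mock-treated HepG2 cells, and 918 of them were absent from the list of PDS-treated cells. These 918 strong mock loops are described here, out of 66417 mock loops and 77862 loops in both lists together. They were selected on measured values: a PET count of at least 8 in mock-treated cells, and no loop with the same pair of anchors in the PDS list. HepG2 cells derive from a human liver cancer. Pyridostatin (PDS) is a compound that binds G-quadruplex (G4) structures. Cells received sterilized water (mock) or 20 μM PDS, each for 24 h, before cross-linking, with 2 replicates per condition and 4 libraries in all. The authors deposited 1 list per condition that combines both replicates, so the replicate spread is unknown and the conditions could not be tested against each other. The other 913 strong mock loops, which were listed in both conditions with the same anchors, served as the comparison and are called retained loops.

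In HiChIP-seq, chromatin is cross-linked, cut with a restriction enzyme (here MboI) and ligated in the nucleus, and fragments bound by the protein of interest are then recovered with an antibody. A PET records 1 such ligation between fragments, and a loop is a pair of anchors joined by several PETs. POLR2A is the largest subunit of RNA polymerase II (RNAPII), so these loops mark contacts of transcribed or RNAPII-bound chromatin, such as promoter to enhancer, promoter to promoter or start to end of a gene. G4 structures form in guanine-rich DNA, which is common near transcription start sites. In bulk chromatin, fewer cells with a contact and a less frequent contact in every cell cannot be told apart.

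Because PDS binds G4 structures, a few upstream sequences that hold a predicted G4 motif, from genes at absent loops, are shown first. The predicted G4 motif searched for consists of 4 stretches of 3 or more G with spacers of 1 to 7 bases, on both strands, and is a sequence pattern and not an observed structure. Each sequence was read from GRCh38, 5′ to 3′ on the strand that carries the G runs, and lies upstream of the canonical start site of the gene, outside annotated exons and inside an anchor of an absent loop. Capitals mark the motif, and lower case the 15 bases on either side.
SRC, chr20:37346033-37346085, minus strand: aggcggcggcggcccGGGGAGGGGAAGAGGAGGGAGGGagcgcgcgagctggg
ASPSCR1, chr17:81977475-81977527, plus strand: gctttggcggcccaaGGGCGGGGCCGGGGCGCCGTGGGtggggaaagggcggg
ARHGAP5, chr14:32076903-32076957, plus strand: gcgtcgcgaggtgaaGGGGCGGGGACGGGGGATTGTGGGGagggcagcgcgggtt
SRXN1, chr20:653477-653525, plus strand: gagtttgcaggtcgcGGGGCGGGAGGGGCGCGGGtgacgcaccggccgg
CEBPB, chr20:50190578-50190629, plus strand: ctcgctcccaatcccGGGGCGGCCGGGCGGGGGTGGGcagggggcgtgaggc
SCD, chr10:100346764-100346812, minus strand: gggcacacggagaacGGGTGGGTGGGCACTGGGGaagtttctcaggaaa
The motif of SRC ended 70 bp before the start site, and that of ASPSCR1 117 bp. Among 420 genes whose canonical start lay within 1 kb of an anchor of an absent loop, 58.1% had a motif in the 1000 bp upstream of the start (95% Wilson interval 53.3 to 62.7%). The share was 58.9% of 316 genes at retained loops (53.4 to 64.1%) and 47.1% of all 20033 protein-coding genes (46.4 to 47.8%). Among 10379 genes with a canonical start at an anchor of any listed loop, the closer background, it was 52.2% (51.2 to 53.1%), just under the lower limits of both groups. The intervals of genes at absent and at retained loops overlapped almost fully. All Wilson intervals here cover counting error only, and loops that share an anchor or a gene are not independent.

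The absent loops held 8288 PETs in mock-treated cells, with a median of 9 and a highest count of 17. Counts of 8 or 9 PETs made up 75.1% of them (689 loops), and 229 had 10 or more. The lists start at 3 PETs. If every anchor pair with 3 or more PETs was listed, each absent loop had between 0 and 2 PETs after PDS treatment. Together that is at most 1836, a PDS/mock ratio of at most 0.222. The loop caller is not given in the sources used here, so this condition was not checked. The retained loops also had a median of 9 PETs in mock-treated cells, and a median of 4 after PDS treatment. The strongest retained loop had 2183 PETs in mock-treated and 1753 in PDS-treated cells, and without it the PETs of the retained loops had a PDS/mock ratio of 0.493. Just outside the rule lay 945 absent loops with 7 mock PETs, and 323 strong loops that were retained with 3 PETs, the lowest count listed (35.4% of the retained loops). These values follow from the rule and are given as a description.

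Absence depended on the mock PET count. Over all mock loops 89.0% were absent from the PDS list, and over those with at least 8 PETs 50.1% were absent. The share was 59.1% at 8 PETs (453 of 766 loops; 95% Wilson interval 55.6 to 62.6%), 52.1% at 9 PETs (236 of 453; 47.5 to 56.7%) and 46.4% at 10 PETs (116 of 250; 40.3 to 52.6%). It was 28.1% at 13 PETs (18 of 64; 18.6 to 40.1%) and 11.4% at 15 or more PETs (9 of 79; 6.11 to 20.3%). The sum of listed PETs was 254647 in the mock list and 67001 in the PDS list. Their ratio, 0.263, is not a ratio of library depths, since the depth of the libraries was not used here. Multiplied by this ratio, 8 PETs become 2.10, which is under the lowest listed count, and 67 absent loops had a count high enough to reach 3 PETs in that way. The exact Poisson upper limit of 2 PETs is 7.22, and only the 19 absent loops with 14 or more PETs had a lower limit above it. This comparison takes both lists as equally deep and 2 PETs as the highest count of an absent loop. It uses the same counts by which the loops were chosen, and that choice favours a gap between the conditions. The 19 loops are therefore a description and not a test of loss.

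**Figure D1:**
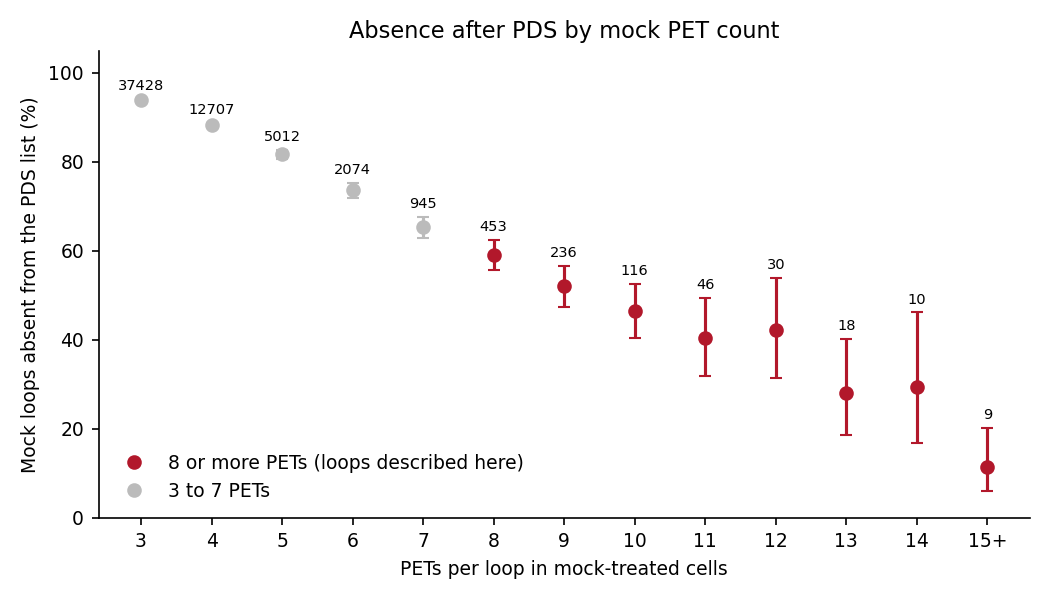
Share of mock loops absent from the PDS list (y axis, %) against the PET count in mock-treated cells (x axis), with 95% Wilson intervals and the number of absent loops above each point. The share falls from 94.0% at 3 PETs to 59.1% at 8 PETs and 11.4% at 15 or more PETs.

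A promoter here is a start site of any protein-coding transcript within 1 kb of an anchor, including start sites inside a gene. Of the 20 strongest absent loops, 15 had a protein-coding promoter at an anchor. In 7 of them both anchors held a promoter, in 4 a promoter was joined to a gene body and in 4 to an intergenic anchor, and the other 5 had no promoter. The 2 loops with most PETs, 17 each under mock treatment and not listed after PDS, lay on chromosomes 8 and 20. The first joined chr8:142737076-142757898, with start sites of SLURP1 and LYPD2, to chr8:142759086-142779085, with start sites of LYNX1 and SLURP2, all of the Ly6/uPAR family of small secreted or membrane-anchored proteins. The second joined chr20:47638591-47665968 to chr20:47631654-47637648 in the gene NCOA3, a nuclear receptor coactivator. The former anchor covered the downstream end of the neighbouring gene SULF2, an extracellular heparan sulfate sulfatase. It counted as a promoter through an internal start site of SULF2. A loop of 16 PETs over 67.7 kb on chromosome 14 joined an intergenic anchor to one inside HEATR5A. This loop had no protein-coding promoter, whereas the other loops with 15 or more PETs all had one.

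6 loops had 15 PETs in mock-treated cells. In TNS1, which encodes the focal adhesion protein tensin, chr2:218004454-218024116 was joined to chr2:218025652-218037844, and both anchors held start sites of the gene. SLC17A3, a transporter of organic anions, and TCEA2, a transcription elongation factor of the TFIIS family, likewise had start sites of the same gene at both anchors of their loops. In ARHGEF18 a promoter anchor was joined to the body of the gene 10.1 kb away. GSDMA, a gasdermin, had its promoter joined to the body of its neighbour LRRC3C over 11.8 kb. SRC, a tyrosine kinase, was joined to an intergenic anchor upstream, chr20:37335619-37341444 to chr20:37342107-37350914, over 7.98 kb. The anchor at the SRC promoter held 19 G4 motifs, among them the one printed above.

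The next 10 loops had 14 PETs each in mock-treated cells. PCK1, the rate-limiting enzyme of gluconeogenesis, was joined to an anchor just upstream, chr20:57544124-57552354 to chr20:57553869-57562106, and neither anchor held a G4 motif. ADSS1, an enzyme of AMP synthesis, was joined to SIVA1, which encodes a pro-apoptotic protein, over 23.7 kb. ASPSCR1, a tether of glucose transporter vesicles, had start sites at both anchors of a loop of 12.99 kb. The scaffold protein gene NHERF1, the gene ARHGAP5 and the kinase anchor gene AKAP6 also had loops of 14 PETs. Intergenic or promoterless loops of 14 PETs lay on chromosomes 2, 10, 14 and 20. Of 18 absent loops tied at 13 PETs, the first by chromosome and position completed the 20 and joined the promoter of HJV, a regulator of hepatic iron sensing, to chr1:146045887-146053513.

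Promoters whose strong loop was absent often still had other listed loops. At the promoters of SRC the listed loops went from 14 to 3 and their PETs from 76 to 13. At PCK1 they went from 9 to 3 loops and from 51 to 12 PETs, and at SULF2 from 15 to 5 loops and from 74 to 18 PETs. GSDMA, with 8 mock loops and 47 PETs, had no PDS loop, and neither had HJV, with 2 mock loops and 16 PETs. These sums include the absent loop itself, so a fall is in part set by the rule, most of all at HJV, where that loop held 13 of the 16 PETs.

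**Figure D2:**
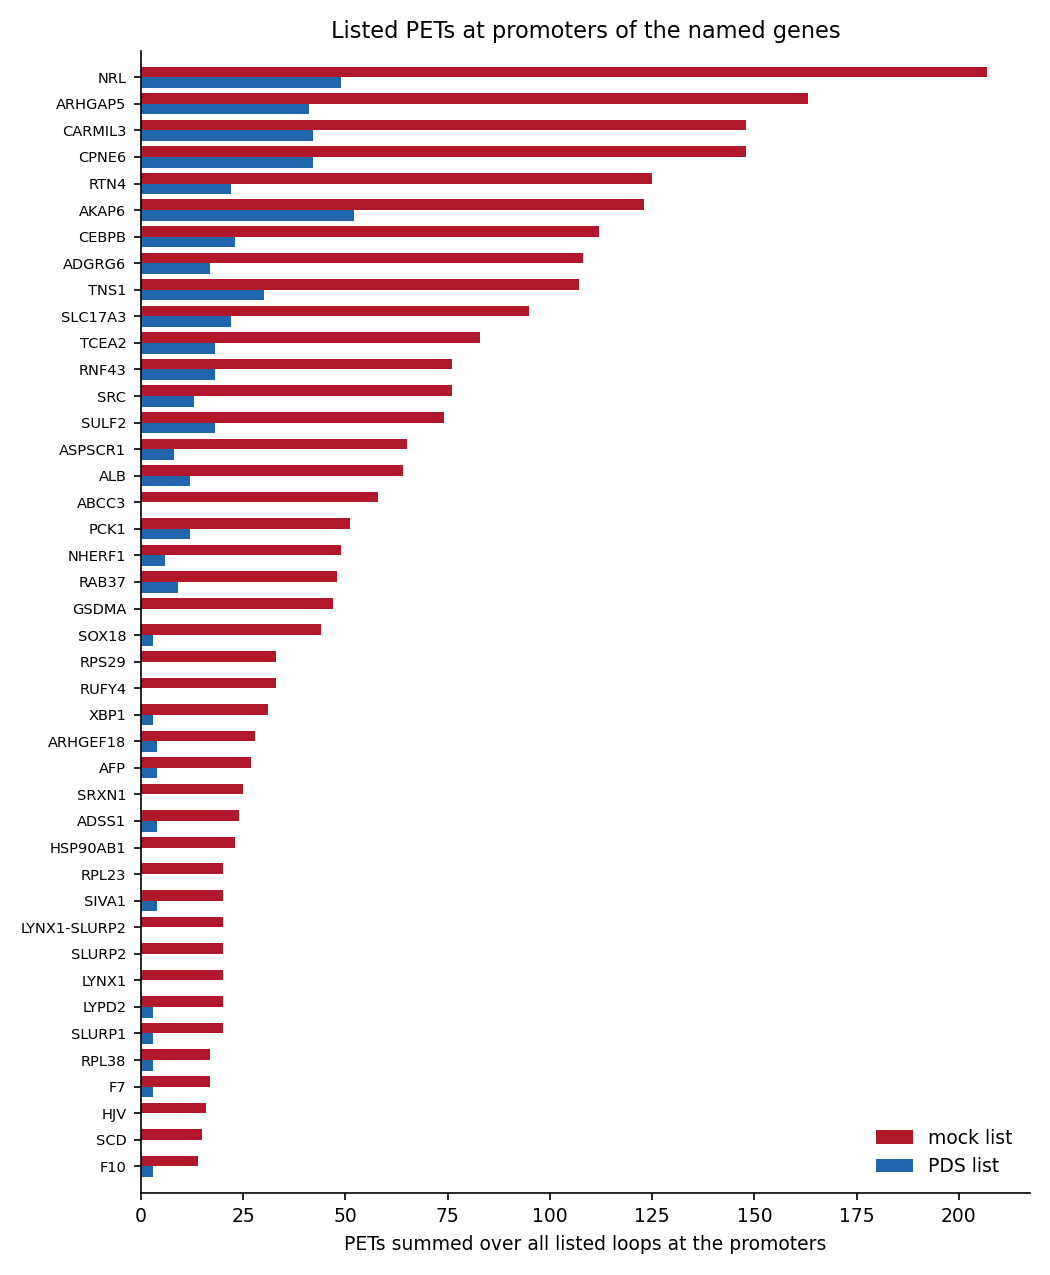
PETs summed over all listed loops at the promoters of 42 genes (x axis) in the mock list and the PDS list. The genes are those at the 20 strongest absent loops, at anchors shared by 3 or more absent loops, or in the gene lists described below; the sums include the absent loops that chose the genes. They run from 207 (mock) and 49 (PDS) for NRL to 14 and 3 for F10, and 12 genes have no PDS loop; of all genes with a mock loop, 94.0% have fewer listed PETs after PDS treatment.

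The absent loops had a start site of 641 protein-coding genes within 1 kb of an anchor. Of these genes, 78 were at 2 or more absent loops, and 106 also had a strong loop that was retained. No PDS loop of any count was listed at the promoters of 174 of the 641 genes (27.1%). Of all 11987 genes with a mock loop at the promoter, 56.4% had no PDS loop, but these genes had a median of 2 mock loops. Over the 641 genes the median number of loops at the promoter was 6 in mock-treated and 1 in PDS-treated cells.

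Most anchors belonged to a single absent loop. Of 1743 anchors, 1656 were in 1 absent loop, 81 in 2 and 6 in 3. The promoter of ADGRG6, an adhesion G protein-coupled receptor, lay in chr6:142296054-142303754, which had 11 mock loops with 58 PETs and no PDS loop, while all start sites of the gene together still had 5 PDS loops. Its absent loops had 13, 10 and 8 PETs in mock-treated cells and reached 69.6 kb into the gene, 8.32 kb upstream and 19.4 kb downstream. An internal start site of RTN4, a reticulon of the endoplasmic reticulum, lay in chr2:55010131-55029886, with 14 mock loops and 4 PDS loops. The anchor at CPNE6, NRL and CARMIL3, chr14:24050737-24085185, went from 23 to 8 listed loops and from 148 to 42 PETs. The other 3 shared anchors lay in PTPRA (13 mock and 4 PDS loops), in MIA2 (18 and 5) and at LINC00482 on chromosome 17 (7 and 1). All these counts include the absent loops by which the anchors were chosen. Over the whole lists, loops went from 66417 to 18778 and PETs from 254647 to 67001, so a fall at an anchor is not particular to it.

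Over all genes with a mock loop at the promoter, 5.35% had an absent strong loop and 4.18% a retained one, and the gene lists below are given beside these shares as counts, with no test. Of 49 listed genes of plasma proteins, coagulation and complement, 32 had a mock loop at the promoter. An absent strong loop was found for 4 of the 49 (AFP, ALB, F7 and F10) and a retained one for 3 (AHSG, ALB and HP). The lists do not hold every gene of their kind. C2 and MBL2, outside this list, had 2 and 1 absent strong loops. The absent loop of ALB and AFP, the genes of albumin and alpha-fetoprotein, joined start sites of both genes, chr4:73401448-73419111 to chr4:73430896-73441619, with 11 PETs. ALB also had a strong loop that was retained, and its promoter loops summed to 64 PETs in mock-treated and 12 in PDS-treated cells. AFP went from 27 to 4 PETs. The neighbouring coagulation factor genes F7 and F10 were joined by 1 absent loop of 8 PETs over 17.5 kb. Of the liver marker genes ALB, AFP, APOA1, APOB, TTR and HNF4A, all but APOA1 had a mock loop at the promoter, as had 59.8% of all protein-coding genes, so a mock loop alone does not check the cell label.

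Of 24 hepatocyte transcription factor genes, 22 had a mock loop and 2 an absent strong loop. They were CEBPB, whose product controls acute-phase and metabolic genes, and XBP1, a regulator of the unfolded protein response, with 8 PETs each. The loop of CEBPB reached an intergenic anchor 101 kb away, chr20:50290978-50299640, and its promoter had 26 mock loops and 7 PDS loops. FOXA2 and GATA4 had strong loops that were retained. HNF4A had 13 mock loops and 6 PDS loops, none of which reached 8 PETs in mock-treated cells.

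Among 24 listed targets of NRF2, the regulator of the antioxidant response, ABCC3 and SRXN1 had absent strong loops and no PDS loop at their promoters. AKR1C2 had a retained strong loop, while its promoter went from 8 to 2 listed loops and from 47 to 8 PETs. SRXN1, which encodes sulfiredoxin, had an absent loop of 13 PETs and 25 PETs over 5 mock loops. ABCC3, an exporter of conjugated organic anions, had absent loops of 9 and 8 PETs and 58 PETs over 14 mock loops. SCD, which encodes stearoyl-CoA desaturase, was the only one of 32 cholesterol and fatty acid synthesis genes with an absent strong loop, of 8 PETs, and its promoter had no PDS loop, while MVD had a retained strong loop. Among 25 heat shock and chaperone genes HSP90AB1 had an absent strong loop, with 10 PETs and no PDS loop, and CCT3 a retained one.

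Of 79 cytosolic ribosomal protein genes, RPL23, RPL38 and RPS29 had an absent strong loop, with 9, 8 and 9 PETs, and RPL7A and RPL10A a retained one. Of 20 targets of Wnt/beta-catenin signalling, RNF43, a ubiquitin ligase that lowers Wnt receptor levels, had 2 absent loops of 10 PETs each and 1 retained strong loop, and AXIN2 and FGF19 had retained strong loops alone. No absent strong loop was found for the listed apolipoproteins (13 genes), metallothioneins (9), or immediate early and stress factors (25). FOSL1, an immediate early gene, had retained ones. The 34 listed genes of cytochrome P450 and phase II enzymes had no absent strong loop either. MGST2, a glutathione transferase gene outside that list, had 2 absent loops that summed to 18 PETs, and no PDS loop. In each of these lists the number of genes with a strong loop of either kind was at most 6, so no share is given.

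The absent loops had a promoter more often than retained loops of the same PET counts. A protein-coding transcript started inside an anchor or within 1 kb of it in 528 of 918 absent loops, 57.5% (95% Wilson interval 54.3 to 60.7%). The retained loops, weighted so that each PET count had the same share as among the absent loops, had 49.6% (46.1 to 53.1%). The difference was 7.92 percentage points (95% interval 3.16 to 12.6). With the canonical transcript of each gene only, the shares were 35.3% and 27.5%, a difference of 7.82 points (3.40 to 12.2). No test was made, since loops are not replicates of the treatment, and the interval covers counting error only.

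By what the anchors joined, loops from a promoter into the body of the same gene were the largest class, with 218 absent loops (23.7%; 21.1 to 26.6%) against 19.8% of retained loops (17.1 to 22.7%). Promoters of 1 gene lay at both anchors in 109 absent loops (11.9% against 10.5%), and promoters of different genes in 69 (7.52% against 6.18%). A promoter was joined to an intergenic anchor in 109 absent loops (11.9% against 9.83%). Loops with both anchors outside protein-coding genes and no promoter, coding or lncRNA, made up 118 absent loops (12.9%; 10.8 to 15.2%) and a larger share of retained loops (17.2%; 14.7 to 20.0%). The intervals of the differences excluded 0 only for this class (-4.31 points; -7.76 to -0.917) and, narrowly, for loops from a promoter into its own gene (3.97 points; 0.0252 to 7.87). Read the other way, without weighting to PET counts, 40.5% of the 291 strong intergenic loops were absent after PDS treatment (35.1 to 46.3%). The unweighted share was 55.9% of the 390 loops from a promoter into its own gene (50.9 to 60.7%).

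**Figure D3:**
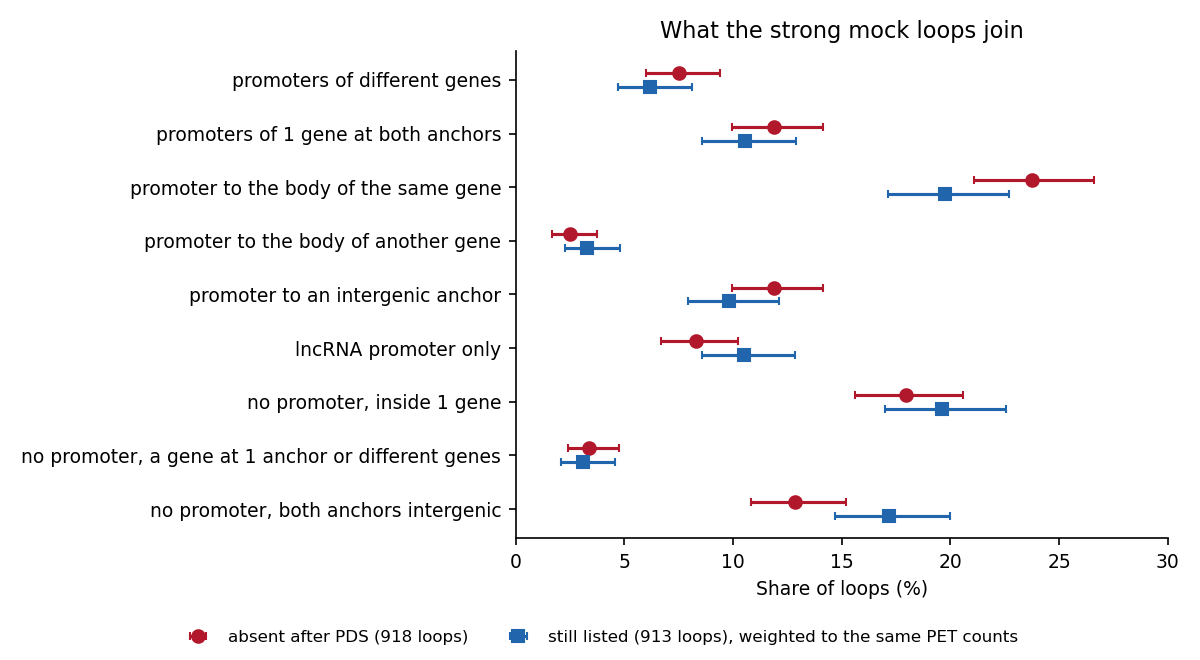
Share of loops (x axis, %) by what the anchors join (y axis), for the 918 absent loops and the 913 retained loops weighted to the same PET counts, with 95% Wilson intervals. The classes with a protein-coding promoter lie further right for absent loops, except promoter to the body of another gene, and the class with both anchors intergenic lies to the left (12.9% against 17.2%).

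Predicted G4 motifs anywhere in the anchors did not separate absent from retained loops. At least 1 motif lay in an anchor of 765 absent loops, 83.3% (80.8 to 85.6%), and of 83.3% of retained loops (80.6 to 85.8%), with an interval of the difference from -3.53 to 3.59 points. A wider anchor can hold more motifs, and absent loops had narrower anchors. With retained loops weighted to anchor width as well, their share was 80.0%. The difference was then 3.29 points, and its interval included 0 (-0.504 to 7.17). In anchors with under 10% repeated 31-base sequence the shares were 81.8% and 87.9%, a difference of -6.07 points (-12.1 to -0.0446). A motif within 1 kb of a start site in an anchor was found for 37.1% of absent loops (34.1 to 40.3%) and 30.7% of retained loops (27.6 to 34.1%). That difference was 6.40 points (1.88 to 10.9). By definition such a motif lies only in loops with a promoter anchor, so the 390 absent and 463 retained loops without one had none. Among loops with a promoter anchor the shares were 64.6% and 62.0%, and the interval of their difference included 0 (-3.66 to 8.89). How far the number of promoter loops accounts for the 6.40 points was not tested. BG4 ChIP-seq peaks were not analysed here.

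Absent loops were shorter and used narrower anchors than retained loops of the same PET counts. Anchor midpoints of absent loops were 13723 bp apart at the median (95% interval 13045 to 14464 bp), and those of retained loops 15564 bp (14683 to 16092.5 bp). Under 10 kb lay 24.5% of absent and 16.995% of retained loops, a difference of 7.51 points (3.65 to 11.3). Among loops whose anchors held under 10% multi-copy sequence (31-base sequences found more than once in the genome) the medians differed by -267 bp with an interval that included 0 (-2036 to 1813 bp). Outside the 6 chromosomes with most mock loops the difference was -1298 bp, and its interval included 0 as well (-3960 to 302 bp). Both anchors together measured 19397.5 bp at the median in absent and 23197 bp in retained loops. A wider anchor can collect more PETs, and its part in whether a loop was listed was not tested.

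**Figure D4:**
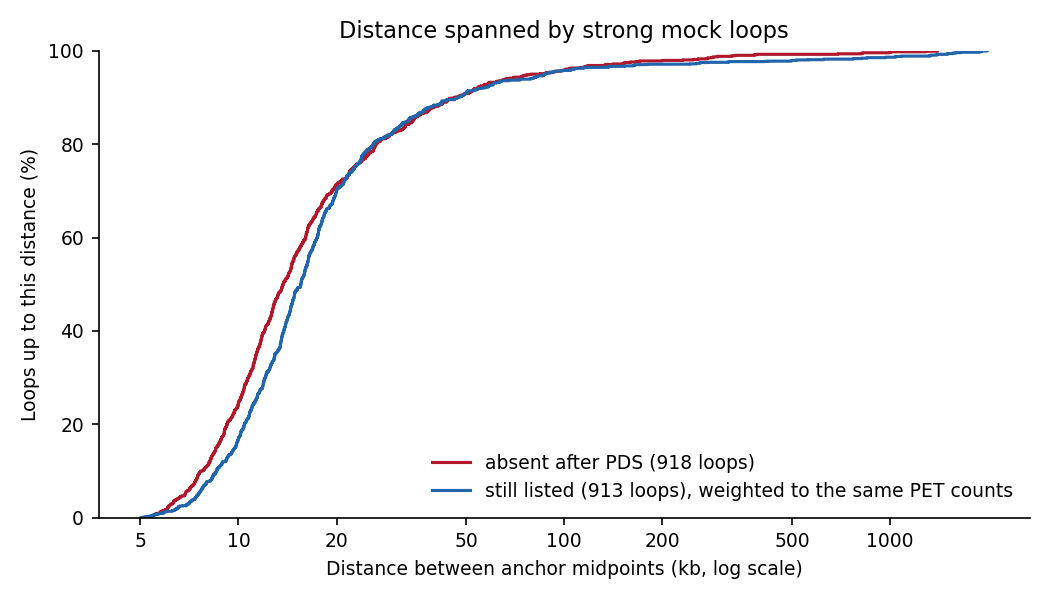
Cumulative share of loops (y axis, %) against the distance between anchor midpoints (x axis, kb, log scale) for absent loops and for retained loops weighted to the same PET counts. The curve of absent loops runs ahead up to about 20 kb, with medians of 13723 and 15564 bp, and the curves meet beyond it.

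Only 20 absent loops spanned more than 200 kb, the longest 1398 kb. In 9 of these 20, most of the anchor sequence was multi-copy, meaning that at least 50% of its 31-base sequences occur more than once in GRCh38, as at the near-identical genes CCDC74B and CCDC74A on chromosome 2. Of the 32 retained loops beyond 200 kb, 27 were of this kind. A read from such sequence can be placed on the wrong copy. Over all distances 18 absent loops (1.961%; 1.24 to 3.08%) and 4.70% of retained loops (3.42 to 6.42%) were of this kind. Among long-range absent loops of mostly single-copy sequence, 1 joined the promoter of CBFA2T3 to that of ACSF3 with 9 PETs over 249 kb, and 1 joined VPS35L to GPRC5B with 8 PETs over 287 kb.

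Absence was less frequent on the chromosomes that had most loops. Chromosomes 2, 6, 14, 16, 17 and 20 were the 6 with most mock loops and held 670 absent loops, 73.0% (70.0 to 75.8%), against 81.7% of retained loops (78.8 to 84.2%). On these chromosomes 47.1% of 1422 strong loops were absent (44.5 to 49.7%), and on the other autosomes and chromosome X 62.0% of 400 (57.2 to 66.6%). Chromosome 14 had the lowest share of them, 36.7% of 259 loops (31.04 to 42.7%), and without it the 5 others had 49.4% (46.6 to 52.3%). Chromosome 6 had 55.8% (48.7 to 62.7%), and its interval did not overlap that of chromosome 14. At exactly 8 PETs the shares were 56.8% of 569 loops (52.7 to 60.8%) and 67.4% of 193 loops (60.5 to 73.6%), whose intervals overlap by less than 1 point. The number of copies of each chromosome in these cells was not measured here.

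Within the 6 chromosomes, 56.1% of absent and 48.5% of retained loops had a promoter (difference 7.65 points; 2.25 to 12.996). On the other chromosomes the shares were 61.3% and 54.6%, and the interval of the difference included 0 (6.70 points; -3.50 to 16.9). The windows of 5 Mb with most absent loops were chr14:20000001-25000000 and chr14:35000001-40000000, with 25 each beside 40 and 55 retained loops. The window chr16:45000001-50000000 had 1 absent and 11 retained loops. Chromosome 4 had 13 absent loops among 15 strong ones, the ALB and AFP loop among them.

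**Figure D5:**
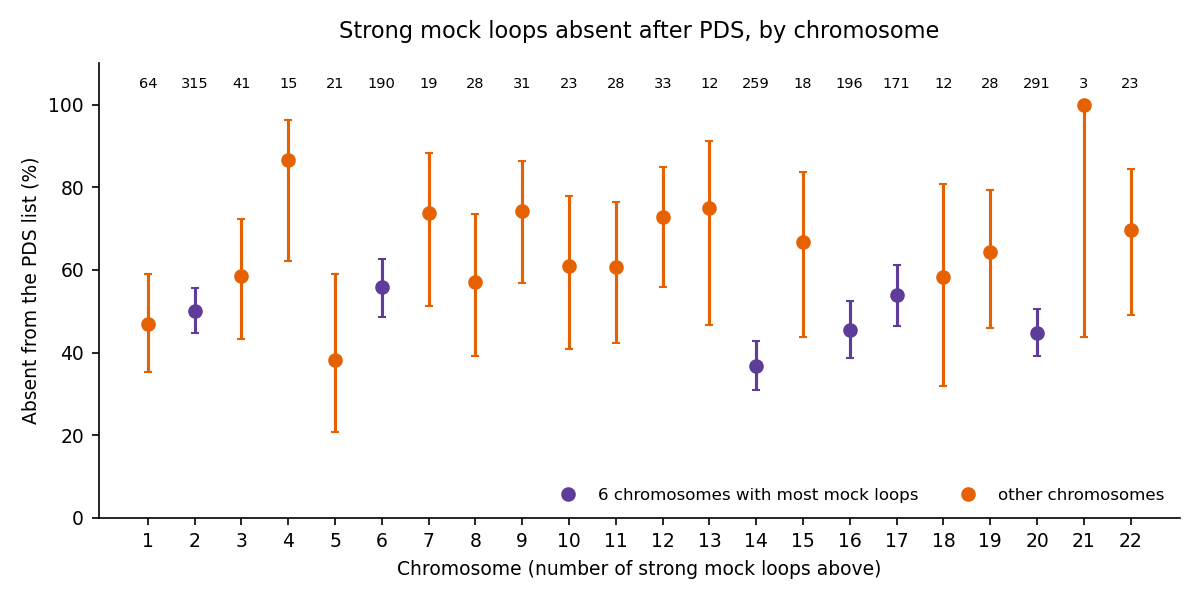
Share of strong mock loops absent from the PDS list (y axis, %) on each autosome (x axis), with 95% Wilson intervals and the number of strong loops at the top; chromosome X, with 1 strong loop, is not drawn. Chromosome 14 is at 36.7% and chromosome 20 at 44.7%, while the chromosomes outside the 6, except 1 and 5, lie above 55% with wide intervals.

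Most absent loops had at least 1 anchor, though mostly not both, in another loop listed after PDS treatment. Another loop was listed in PDS-treated cells at 1 or both anchors of 708 absent loops, 77.1% (74.3 to 79.7%), against 83.4% of retained loops (80.7 to 85.9%). Outside the 6 chromosomes the order was the reverse, 56.0% against 51.8%, with an interval of the difference that included 0 (-6.07 to 14.5). With retained loops weighted to anchor width as well, the difference over all chromosomes was -3.76 points, and its interval included 0 (-7.71 to 0.289). Both anchors were in use in 33.4% of absent and 44.3% of retained loops. A PDS loop between anchors within 5 kb of both anchors was listed for 462 absent loops (50.3%), with a median of 4 PETs and at most 13. For the other 456 no such loop was listed. The mock loops that shared an anchor with an absent loop numbered 6692, counted once for each absent loop, and 18.6% of them were in the PDS list (17.6 to 19.5%), against 21.8% of 8251 at retained loops (21.0 to 22.7%). These values come from the same lists as the rule and are descriptions.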

How the data were processed

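HepG2 cells were mock-treated or treated with PDS in 2 replicates per condition. The authors used HiC-Pro 3.1.0 for alignment to GRCh38, removal of duplicates and assignment to restriction fragments, and deposited 1 list of loops per condition with whole-number counts of PETs, not scaled for depth. The loop caller and how replicates were combined are not given in the sources used here. Library depth was not used. Loops were matched by identical anchor pairs. The reference was GRCh38 with GENCODE 44, and 81739 of 81742 anchors began at an MboI site in it. Shares have 95% Wilson intervals, weighted shares use the effective number of loops, and intervals of differences combine both. PET counts were weighted in classes of 8 to 14 and of 15 or more. Multi-copy sequence was counted over 31-base sequences of 194 genome sequences without alternate contigs. Named genes were those at the 20 strongest absent loops, at anchors shared by 3 or more absent loops, and listed genes with an absent loop. Members and gene lists were chosen with earlier results of these data known. Scripts were tested on simulated data. The alternatives were other PET minimums, matching rules, promoter and motif definitions, and subsets of chromosomes and anchors. Tools were Python 3.11.15, numpy 2.4.6, scipy 1.17.1, pandas 2.3.3, pysam 0.24.0, numba 0.67.0, samtools 1.23.1 and matplotlib 3.10.9.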

Additional observations from a re-analysis of the deposited data

How the results depend on the processing

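The higher share of promoter loops kept its direction under all 11 alternatives, from 5.63 points with a minimum of 7 PETs to 10.3 points when weighted to anchor width too (a choice made after the data were seen), and without the 6 chromosomes its interval included 0. The number of absent loops was 1863, 229 and 67 with minimums of 7, 10 and 12 PETs, 456 with anchors extended by 5 kb, 248 without the 6 chromosomes and 280 with anchors under 10% multi-copy sequence. The difference in motif share (0.0013 points) was 5.69 with a minimum of 10 PETs, 6.92 without the 6 chromosomes, -6.07 with anchors under 10% multi-copy sequence and 6.40 for motifs within 1 kb of a start site. The difference in median distance was -2715.5 bp with a minimum of 10 PETs and -267 bp with anchors under 10% multi-copy sequence. The difference in multi-copy share was -1.62 points with a minimum of 10 PETs and -2.13 points without the 6 chromosomes. Extending anchors by 5 kb moved the difference in the share on the 6 chromosomes to -18.4 points, and the cause was not tested. It moved the difference in loops with another PDS loop to -33.5 points, and that rule by its nature takes out absent loops with a PDS loop nearby. Without the 6 chromosomes the difference in loops with another PDS loop reversed to 4.23 points (95% interval -6.07 to 14.5). The cause of this was not tested either. With a minimum of 10 PETs the interval of the difference in the share on the 6 chromosomes included 0 (-12.8 to 0.691). No paired analysis was possible because each list combines both replicates, and leaving out a replicate was not run for that reason. Depth limits single loops: an absent loop can have up to 2 PETs, or more if the loop caller left out pairs on other grounds.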

Other observations

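A few further genes with several absent loops were chosen after their values were seen, and their mock loop counts include these absent loops. SNX9, a sorting nexin of endocytosis, had absent loops of 11, 9 and 9 PETs, all outside the 20 strongest. Its start sites had 22 mock loops against 4 PDS loops. The loop of 11 PETs used a start site at chr6:157933245-157948317, an anchor that covers the downstream end of the gene. ERN1, which encodes the endoplasmic reticulum stress sensor IRE1, had 3 absent loops of 8 PETs each, and 20 mock loops against 3 PDS loops. The complement gene C2 had 2 absent loops of 11 PETs each in neighbouring anchors of its locus on chromosome 6, and 13 mock loops against 1 PDS loop with 3 PETs.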
